A study of Mus musculus with 6 samples.

Results

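The p53 target genes described here are 36 mouse genes of the p53 pathway, listed by name. They comprise Trp53, which encodes p53 itself, its negative feedback genes, and genes for cell cycle arrest, cell death, DNA repair and metabolism. Each of the 36 symbols matched 1 identifier among the 53801 genes counted, and all 36 passed the filter on low counts. The RNA came from neural progenitor cells (NPCs), the dividing precursors of neurons and glia, that had been derived from mouse embryonic stem cells (strain BL/6J x CAST-EiJ) and then subcloned. In every cell, untreated cells included, the repressor protein SPEN carries an auxin-inducible degron, which lets the plant hormone auxin direct the tagged protein to degradation. Each of 2 subclones, clone 30 and clone 31, gave 1 untreated library and 1 library for each of 2 exposures to 500 uM auxin, of 24 h and of 48 h, so each time has n = 2 and each clone n = 3. Cells were kept on 0.1% gelatin in N2B27 medium, with 10 ng/ml of the growth factors EGF and FGF. No auxin-treated cells without the degron were analysed here, so auxin itself and the loss of SPEN cannot be told apart, and each line is 1 clone.

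The p53 protein is a transcription factor that is kept low by the ubiquitin ligase Mdm2 and is stabilised by DNA damage, replication stress and other insults. It then raises genes that halt the cell cycle, kill the cell, repair DNA or adjust metabolism, and it raises Mdm2 as well, which closes a negative feedback loop. In the developing brain its activation is known for removing damaged neural progenitors. Its activity is set mostly at the protein level, so the RNA of Trp53 does not measure it, and RNA of the targets is the readout here.

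Total counts ran from 24603816 to 43008978 per library, and levels are given as CPM, which are TMM-normalized counts scaled to library size. Libraries of the same clone deviated together from their group means, so each auxin comparison is given from edgeR on treatment group alone and from edgeR with the clone as a block, which removes the constant difference between the clones. A gene is called where the Benjamini-Hochberg adjusted p over all genes tested was below 0.05. On treatment group alone the p-values measure only the spread between these 2 subclones. With the block, and between the clones, they measure only how far the 2 subclones differed in their changes over the treatment groups. None of them measures the spread over other subclones. Both comparisons against untreated share the untreated libraries, and the comparison of 48 h with 24 h shares libraries with each of them. Spen RNA does not check the depletion of a protein, and it stood at 92.4 and 116 CPM in untreated cells, 174 and 218 after 24 h, and 199.7 and 259 after 48 h (clone 30 before clone 31, as in all pairs below). Progenitor markers summed to between 5692 and 7707 CPM, and 3 of 4 pluripotency markers (Pou5f1, Zfp42 and Dppa5a) had 0 counts in all 6 libraries. The remaining marker, Nanog, stood at 2.52 and 3.65 CPM after 48 h and lower in every other library. With the block it was called higher at 48 h, by 1.21 on the log2 scale against untreated and by 1.497 against 24 h. In bulk RNA, fewer cells of a type and less RNA per cell cannot be told apart.

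Sequence around the starts of these genes is shown because p53 binds DNA directly, through a pair of short half-sites that lie close together. RefSeq promoter windows of build GRCm38.p6, from 250 bases before to 50 after a start, were found for 28 of the 36 genes. A search on both strands for the p53 half-site consensus, each half-site 10 bases long, found an exact match in 13 of the 28 genes (46.4%), against 9.55% of 27025 genes with such windows. Pairs of half-sites were sought with a spacer of at most 3 bases and at most 2 mismatches in all. No mismatch was allowed in CWWG, the core of a half-site, where W is A or T. Such a pair lay in 5 of the 28 genes (17.9%), against 0.714% of all genes. A pair in the Ccng1 window with a mismatch in a core was therefore not counted. The best-matching pair of each of the 5 genes follows, with its half-sites in capitals and any spacer in lower case. The Gtse1 window holds 2 pairs that share a half-site, and the one without a spacer is shown. RefSeq lists 2 starts for each of Cdkn1a, Gtse1 and Sesn1, and in each gene the window of only 1 of them holds a pair. They lie at chr17:29090928-29090947 (Cdkn1a, + strand), chr15:85859945-85859964 (Gtse1, + strand), chr7:45467079-45467099 (Bax, - strand), chr8:22186003-22186022 (Ckap2, - strand) and chr10:41887253-41887275 (Sesn1, + strand).
Cdkn1a: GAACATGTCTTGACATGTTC
Gtse1: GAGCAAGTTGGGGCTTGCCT
Bax: AGGCAAGCTTtGAACTTGCGG
Ckap2: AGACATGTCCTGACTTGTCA
Sesn1: GCGCTTGGCCttcAAGCTTGTTT

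The pairs in Cdkn1a and Gtse1 each had 1 mismatch to the consensus, and those in Bax, Ckap2 and Sesn1 had 2. Counted from the start, the pair in Cdkn1a spanned bases -51 to -32, that in Gtse1 -1 to 18, that in Bax -201 to -181, that in Ckap2 -203 to -184 and that in Sesn1 -186 to -164. Mdm2 held no such pair in its window, but an exact half-site, GAACTTGCCT, at -186. The 250 bases before the start are printed for the start of Cdkn1a that holds the pair, the more upstream one (chr17:29090729-29090978, + strand), and for the Sesn1 start that holds the pair (chr10:41887189-41887438, + strand), since these genes moved in opposite directions at 48 h. Capitals mark the pair. The Cdkn1a window also holds an exact half-site, GGACTAGCTT at -73, that is left in lower case. A match here describes the letters and is not a mapped binding site.
Cdkn1a: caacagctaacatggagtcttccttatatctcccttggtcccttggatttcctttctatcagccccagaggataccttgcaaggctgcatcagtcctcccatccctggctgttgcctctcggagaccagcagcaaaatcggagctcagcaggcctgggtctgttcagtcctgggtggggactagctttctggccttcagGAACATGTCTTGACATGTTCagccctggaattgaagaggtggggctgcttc
Sesn1: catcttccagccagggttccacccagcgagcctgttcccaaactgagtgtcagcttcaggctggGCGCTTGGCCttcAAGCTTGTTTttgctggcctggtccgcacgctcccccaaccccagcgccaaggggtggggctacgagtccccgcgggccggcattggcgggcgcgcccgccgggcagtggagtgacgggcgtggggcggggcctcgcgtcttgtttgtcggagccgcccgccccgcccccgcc

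Untreated levels of the genes were compared as CPM per kb of exon, which allows for gene length. Cdkn1a and Ephx1 stood highest, at 242 and 240.0 CPM per kb, followed by Ccng1 (186), Ddit4 (157) and Ckap2 (100.5). Cdkn1a encodes p21, the CDK inhibitor that carries much of the arrest response to p53, and it stood at this level before any auxin. The death genes spread widely on the same scale, from Bax (86.2), Ei24 (54.7) and Eda2r (53.1) down to Fas (4.46) and Perp (0.755). All 4 repair genes stood low, between 2.65 (Ddb2) and 4.88 (Xpc). Trp53 itself stood at 28.6 and Mdm2 at 20.0.

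After 24 h of auxin the genes stood mostly slightly above untreated, but none passed the test across all genes. The block fit placed 31 of 36 above 0 with a median log2 difference of 0.25, against a median of 0.01 over all 16007 genes tested. Every one of the 11 death genes, the 7 arrest genes and the 6 feedback genes and regulators was above 0, with medians of 0.35, 0.27 and 0.20. In the repair group 2 of 4 genes were above 0, as were 3 of 5 in metabolism. Within the clones, 28 of 36 genes (77.8%) were higher in both, against 33.9% of all genes, and 1 of 36 (Ddb2, 2.78%) was lower in both, against 29.5%. The median within-clone difference was 0.34 in clone 30 and 0.17 in clone 31.

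For this 24 h comparison edgeR called 0 of 36 genes and 0% of all genes, on treatment group alone and with the block. At an unadjusted p of 0.05 the block picked 14 of 36 genes (38.9%), all of them higher, against 6.17% of all genes, and the fit on treatment group alone picked 0 of 36 against 240 of 16007 genes. DESeq2 with the block called 0.256% of all genes, 41 of them, and again 0 of 36. Limma voom with the block called 0 of 36. Leaving out either 48 h library raised the block count to 4 of 36, with 1.54% and 1.56% of all genes called, and fitting only the 4 libraries compared raised it to 3, with 0.888%. The 14 genes at an unadjusted p of 0.05 became 2 without the untreated library of clone 30, 0 or 5 when the 24 h library of clone 30 or clone 31 was dropped, and 22 without either 48 h library. The share of all genes at that threshold became 2.81%, 1.32%, 2.15% and, without a 48 h library, 15.9% and 15.7%.

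**Figure D1:**
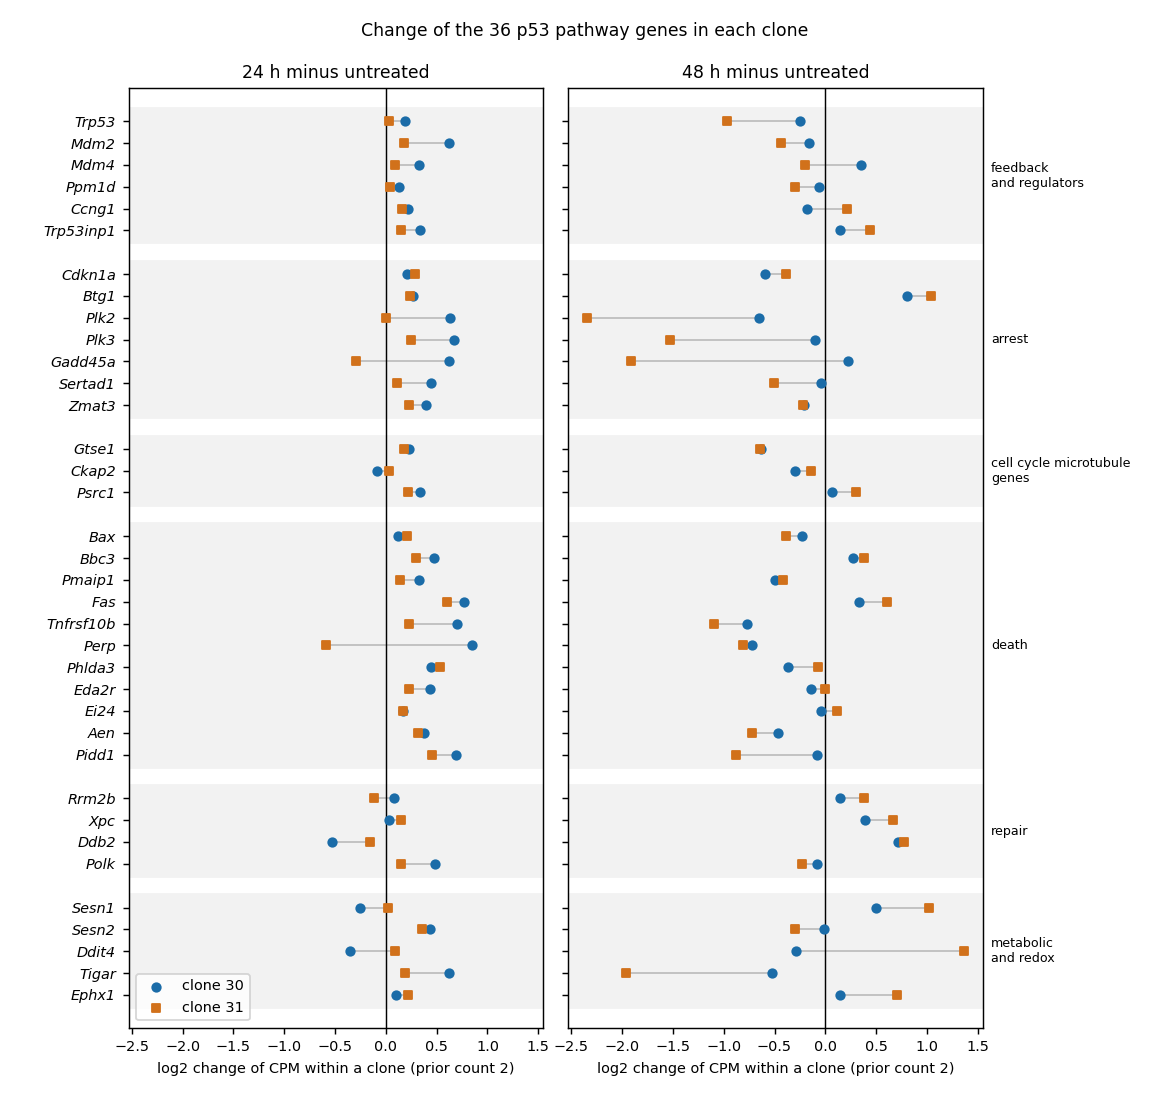
Log2 change of CPM within each clone for the 36 genes, at 24 h (left) and 48 h (right) against the untreated library of the same clone; each point is 1 library pair, circles are clone 30 and squares clone 31, and grey lines join a gene's clones. At 24 h 28 of 36 genes lie right of 0 in both clones, while at 48 h 21 lie left of 0 in both and 10 right of 0 in both.

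After 48 h the genes parted. Btg1, an antiproliferative gene, the damage-recognition genes Xpc and Ddb2, and the sestrin Sesn1 rose, while Cdkn1a, the kinase gene Plk2, the microtubule gene Gtse1, the death receptor gene Tnfrsf10b and the nuclease gene Aen fell. The 9 calls among 36 genes come from edgeR with the clone as a block, which called 17.4% of all genes (8.35% higher and 9.08% lower), so 4 higher and 5 lower of 36 is near the background in each direction. The median log2 difference of the 36 genes was -0.20, against 0.02 over all genes. Within the clones 21 of 36 genes (58.3%) were lower in both, against 35.3% of all genes.

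On treatment group alone edgeR called 0 of 36 genes at 48 h and 0% of all genes, with 9 of 36 and 3311 of 16007 at an unadjusted p of 0.05. DESeq2 on treatment group alone called 7 of 36 and 10.4% of all genes, and limma voom 0 of 36 and 0%. The block count also rested on single libraries. It was 0 without the untreated library of clone 31, 3 without either 24 h library and 22 without the 48 h library of clone 30. The calls over all genes moved with it, to 6 of 16364, to 614 and 646 (3.76% and 3.94%) and to 6615 of 16780 (39.4%). The median of -0.20 became -0.08 without the untreated library of clone 31.

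Between 24 h and 48 h the fall was broad. With the clone as a block, edgeR called 18 of 36 genes lower and 4 higher, against 13.9% of all genes lower and 12.3% higher (26.1% in either direction). The median log2 difference of the genes was -0.48, against 0.03 over all genes, and all 11 death genes, 6 of 7 arrest genes and 5 of 6 feedback genes and regulators were below 0. By role, the genes called lower were 7 of 11 for death, 5 of 7 for arrest, 2 of 6 for feedback and regulation, 2 of 5 for metabolism, 1 of 4 for repair and 1 of 3 microtubule genes. The 4 called higher were Btg1, Xpc, Ddb2 and Sesn1, the same 4 that rose against untreated. On treatment group alone edgeR called 0 of 36 here and 0% of all genes (14 of 36 and 3997 of 16007 at an unadjusted p of 0.05). DESeq2 called 10 of 36 and 15.8% of all genes, and limma voom 0 of 36 and 0%. Without either 24 h library the block count was 0, with 0 and 3 calls over all genes and a median of -0.31 if clone 30 lacked it and -0.53 if clone 31 did. Under upper-quartile scaling the calls over all genes moved from 1961 higher and 2224 lower to 2549 higher and 1726 lower, and those of the 36 genes to 4 higher and 14 lower.

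Read as a time course, 18 of the 36 genes (50%) had their highest level at 24 h and their lowest at 48 h in both clones, against 13.9% of all genes tested. They were Trp53, Mdm2, Ppm1d, Cdkn1a, Plk3, Sertad1, Zmat3, Gtse1, Bax, Pmaip1, Tnfrsf10b, Phlda3, Eda2r, Aen, Pidd1, Polk, Sesn2 and Tigar. The death group gave 7 of these from its 11 genes and the arrest group 4 from 7. The opposite shape, highest at 48 h in both clones, was seen for Btg1, Rrm2b, Xpc, Ddb2, Sesn1 and Ephx1, which is 16.7% of the genes against 30.9% of all genes. These shapes were counted after the levels had been seen and carry no test.

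**Figure D2:**
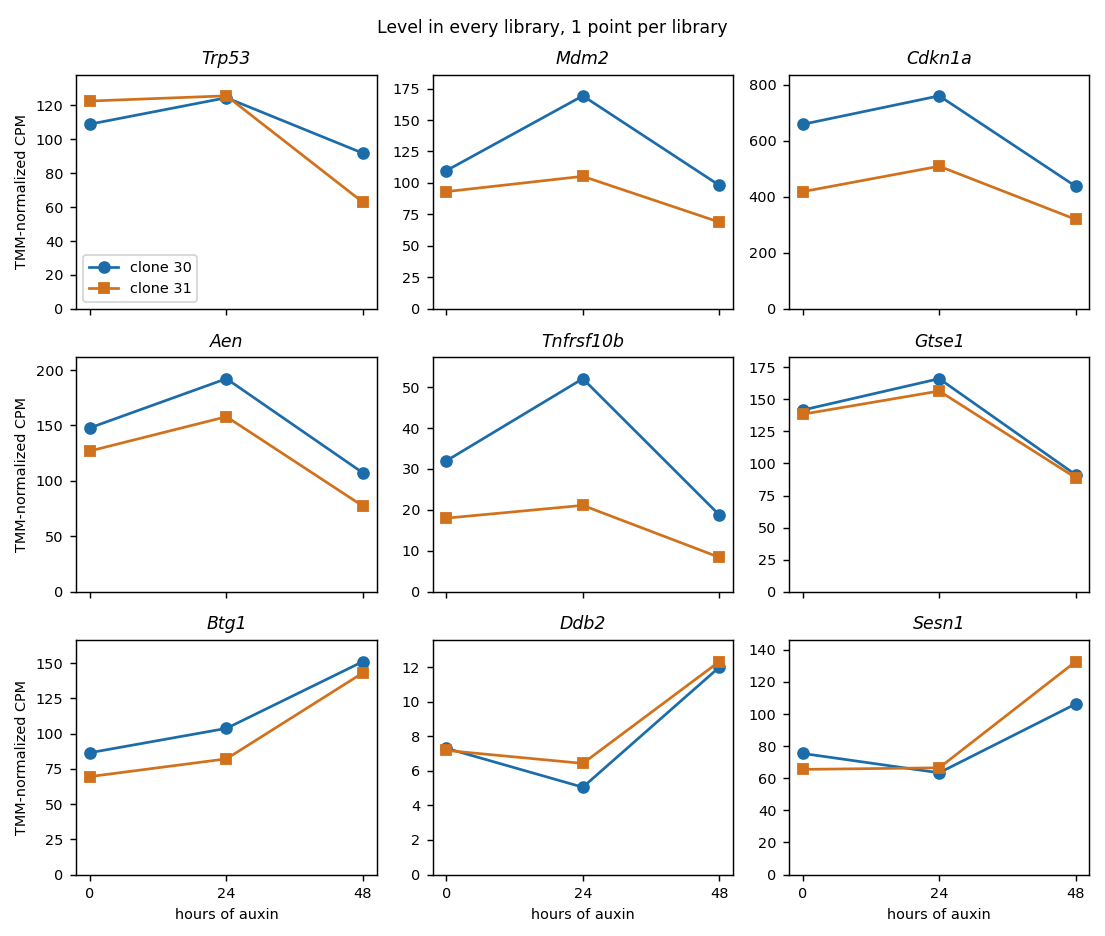
TMM-normalized CPM of 9 of the genes against hours of auxin, 1 point per library, with clone 30 as circles and clone 31 as squares; each y axis starts at 0 and lines join the libraries of a clone. Trp53, Mdm2, Cdkn1a, Aen, Tnfrsf10b and Gtse1 are highest at 24 h and lowest at 48 h in both clones, and Btg1, Ddb2 and Sesn1 are highest at 48 h.

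Among the feedback genes and regulators, Trp53 and Mdm2 fell between 24 h and 48 h. Trp53 RNA stood at 109 and 123 CPM in untreated cells, 125 and 126 after 24 h, and 91.8 and 62.8 after 48 h. It was nearly level over the first 24 h, and both 48 h libraries lay below every other library. The block fit gave a log2 change from 24 h to 48 h of -0.70 ± 0.18 (adjusted p = 0.0369) and against untreated of -0.60 ± 0.18 (adjusted p = 0.0685), with the SE after ± and the edgeR adjusted p in brackets, as below. Within the clones the change from 24 h to 48 h was -0.440 in clone 30 and -0.999 in clone 31. Leaving out 1 library moved the block value from -0.41, when the 48 h library of clone 31 was dropped, to -1.02, when that of clone 30 was, and the value against untreated between -0.31 and -0.91. Mdm2, the ligase gene that p53 itself induces, stood at 109.8 and 93.1 CPM in untreated cells, 169 and 105 after 24 h, and 98.1 and 68.9 after 48 h. The 24 h library was the highest in each clone, and the groups overlapped except between 24 h and 48 h. The log2 difference of Mdm2 was 0.40 ± 0.12 (adjusted p = 0.755) at 24 h against untreated and -0.70 ± 0.12 (adjusted p = 0.0183) at 48 h against 24 h. The former was 0.62 in clone 30 and 0.18 in clone 31 within the clones, and the block value lay between 0.23 and 0.58 when 1 library was dropped, its ends given by the untreated libraries of clone 30 and clone 31.

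Ccng1 encodes cyclin G1, a regulator of Mdm2, and Trp53inp1 a stress-induced protein that promotes p53 activity. Ccng1 stood at 827 and 480.0 CPM in untreated cells, 965 and 538 after 24 h, and 727 and 556 after 48 h. Trp53inp1 stood at 686 and 424 CPM in untreated cells, 868 and 470.4 after 24 h, and 759.6 and 576 after 48 h. Neither was called in an auxin comparison, and in both genes every library of clone 30 exceeded every library of clone 31. Mdm4, which encodes the inhibitor of p53 related to Mdm2, ranged from 129 to 174 CPM over the 6 libraries, and Ppm1d, the phosphatase gene that switches the damage signal off, from 33.0 to 43.5. Neither was called in any comparison. A pseudogene, Mdm4-ps, held 58.8 counts on average, and reads that fit both copies could have been split between them.

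In the arrest group, Cdkn1a fell and Btg1 rose at 48 h. Cdkn1a stood at 658 and 418 CPM in untreated cells, 759.6 and 509 after 24 h, and 437 and 319 after 48 h. Within each clone the 48 h library was the lowest of the 3 and the 24 h library the highest, and clone 30 stood above clone 31 throughout. The groups overlapped, except that both 24 h libraries lay above both 48 h libraries. Its log2 change was -0.49 ± 0.10 (adjusted p = 0.0345) against untreated and -0.73 ± 0.10 (adjusted p = 0.0162) against 24 h, and on treatment group alone the former had an adjusted p of 0.419. With 1 library dropped the block value against untreated lay between -0.59 and -0.40, and its call did not hold in most such fits. Btg1 stood at 86.5 and 69.5 CPM in untreated cells, 104 and 82.1 after 24 h, and 151 and 143 after 48 h. Both 48 h libraries lay above the other 4, and the log2 change was 0.93 ± 0.10 (adjusted p = 0.0238) against untreated, with an adjusted p of 0.139 on treatment group alone.

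Plk2 and Plk3 encode polo-like kinases of the stress response. Plk2 stood at 252 and 411 CPM in untreated cells, 392 and 411 after 24 h, and 160.3 and 80.9 after 48 h. Both 48 h libraries lay below the other 4, and the log2 change against untreated was -1.48 ± 0.38 (adjusted p = 0.0498). Within the clones it was -0.65 in clone 30 and -2.34 in clone 31. With 1 library dropped the block value lay between -2.18 and -0.84, the latter without the 48 h library of clone 31. The call did not hold in every such fit. Plk3 stood at 6.62 and 10.1 CPM in untreated cells, 10.6 and 12.0 after 24 h, and 6.17 and 3.47 after 48 h. It was called only from 24 h to 48 h, at -1.22 ± 0.33 (adjusted p = 0.0460), and the within-clone values behind it were -0.77 in clone 30 and -1.78 in clone 31. The block value was -1.87 or -0.70 when the 48 h library of clone 30 or clone 31 was dropped.

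Zmat3, a zinc-finger RNA-binding protein gene, stood at 230.2 and 184 CPM in untreated cells, 302 and 215 after 24 h, and 199 and 158 after 48 h. Its log2 change from 24 h to 48 h was -0.53 ± 0.09 (adjusted p = 0.0183), with the 24 h library the highest in each clone. Sertad1, which encodes a CDK4-binding protein, stood at 13.1 and 17.2 CPM in untreated cells, 17.9 and 18.6 after 24 h, and 12.7 and 12.1 after 48 h. From 24 h to 48 h it fell by 0.55 on the log2 scale (adjusted p = 0.0464). Gadd45a, a damage-inducible inhibitor of the cell cycle, was not called, and its clones went opposite ways at 48 h, 0.23 in clone 30 and -1.92 in clone 31. An antisense transcript, E230016M11Rik, covers 19.1% of its exon bases but held only 57.2 counts on average, against 978 for Gadd45a.

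The 3 microtubule genes were included as p53 targets, but they are also cell cycle genes. Gtse1, expressed in the later cell cycle and a regulator of p53, stood at 142 and 138 CPM in untreated cells, 166 and 156 after 24 h, and 91.1 and 88.8 after 48 h. The clones lay close together at each time and both 48 h libraries were below all others, with a log2 change of -0.64 ± 0.08 (adjusted p = 0.0238) against untreated and -0.84 ± 0.08 (adjusted p = 0.0162) against 24 h. Ckap2, a spindle gene, stood at 359 and 288 CPM in untreated cells, 338 and 294 after 24 h, and 291 and 262 after 48 h. Psrc1, which acts on spindle microtubules, stood at 132 and 124 CPM in untreated cells, 166 and 144 after 24 h, and 138 and 153 after 48 h. Neither was called in any comparison.

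The S phase list shared the fall at 48 h, but not the 24 h difference of Gtse1, which was 0.20 in the block fit and not called. All 12 S phase genes fell at 48 h in the block fit, with a median log2 change of -0.88 (Ccne2 -1.45, Cdc6 -1.30 and Cdc45 -0.93), while at 24 h their median was -0.02. Of 12 mitosis genes, Bub1 and Cdk1 fell, by 0.43 and 0.44. Whether fewer cycling cells lowered Gtse1 or any other of the 36 genes was not tested. Glial markers moved too at 48 h, when 3 of 4 astrocyte markers rose and 3 of the 4 oligodendrocyte markers tested rose. Astrocyte markers summed to 319 to 399 CPM in the 4 untreated and 24 h libraries and to 597 and 855 CPM at 48 h, and oligodendrocyte markers to 90.3 to 147 and then 326 and 531 CPM. All 4 astrocyte and all 4 oligodendrocyte markers tested were above 0 in the block fit at 48 h against untreated. Their median log2 differences were 1.41 and 1.98. Gfap stood at no more than 2.72 CPM and Mbp at no more than 1.47, and no marker of either list was at 0 in all libraries. The part of such a shift in the 48 h values was not tested.

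In the death group 7 of 11 genes fell between 24 h and 48 h, against 13.9% of all genes lower, and 2 of 11 fell against untreated, against 9.08%. Tnfrsf10b, the mouse receptor for TRAIL, stood at 32.0 and 18.0 CPM in untreated cells, 52.1 and 21.1 after 24 h, and 18.8 and 8.40 after 48 h. Each clone peaked at 24 h and ended lowest at 48 h, and the log2 change was -0.94 ± 0.15 (adjusted p = 0.0247) against untreated and -1.40 ± 0.15 (adjusted p = 0.0162) against 24 h. Aen, an apoptosis-enhancing nuclease gene, stood at 148 and 127 CPM in untreated cells, 192 and 158 after 24 h, and 107 and 77.2 after 48 h. Both of its 48 h libraries lay below the other 4, with -0.59 ± 0.10 (adjusted p = 0.0260) against untreated and -0.94 ± 0.10 (adjusted p = 0.0162) against 24 h. The Aen block value against untreated lay between -0.69 and -0.50 with 1 library dropped, and its call did not hold in every such fit.

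Bax and Pmaip1 act in the mitochondrial pathway, Bax as the pore-forming protein and Pmaip1 (NOXA) as an inhibitor of survival proteins. Bax stood at 148 and 124 CPM in untreated cells, 161 and 143 after 24 h, and 126 and 94.6 after 48 h. Pmaip1 stood at 32.6 and 15.2 CPM in untreated cells, 41.0 and 16.6 after 24 h, and 23.2 and 11.3 after 48 h. Bax changed by -0.48 ± 0.10 (adjusted p = 0.0228) from 24 h to 48 h and Pmaip1 by -0.69 ± 0.12 (adjusted p = 0.0180), and neither was called against untreated. Bbc3 (PUMA), of the same pathway as Pmaip1, was not called in an auxin comparison. It stood at 39.1 and 23.6 CPM in untreated cells, 54.5 and 28.9 after 24 h, and 47.2 and 30.7 after 48 h, and its log2 difference from 24 h to 48 h was -0.06 ± 0.11 (adjusted p = 0.694).

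Phlda3, an inhibitor of Akt signalling, stood at 97.7 and 55.3 CPM in untreated cells, 133 and 79.8 after 24 h, and 75.5 and 52.5 after 48 h. Eda2r, a receptor of the TNF receptor family, stood at 403 and 223 CPM in untreated cells, 546 and 261 after 24 h, and 366 and 221 after 48 h. Both peaked at 24 h in each clone and fell by 48 h, Phlda3 by 0.71 and Eda2r by 0.41 on the log2 scale (adjusted p = 0.0163 and 0.0488). With 1 library dropped the Eda2r value lay between -0.55 and -0.27, the latter without the 48 h library of clone 30. Its call did not hold in most such fits. Pidd1, scaffold of a caspase-activating complex, stood at 43.8 and 36.3 CPM in untreated cells, 70.8 and 49.7 after 24 h, and 41.4 and 19.7 after 48 h and changed by -1.03 ± 0.19 (adjusted p = 0.0202) from 24 h to 48 h.

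The death receptor gene Fas had the largest positive log2 difference of the 36 genes at 24 h, 0.70 ± 0.16 (adjusted p = 0.663), which did not pass the test. Its level was 12.0 and 4.08 CPM in untreated cells, 20.5 and 6.24 after 24 h, and 15.1 and 6.25 after 48 h. Each clone was higher at 24 h than untreated, and every library of clone 30 lay above every library of clone 31. Ei24, which encodes a membrane protein of the endoplasmic reticulum, ranged from 222 to 349 CPM and was not called in an auxin comparison. Perp, a membrane protein gene of epithelial junctions, was the lowest of the 36, at 0.603 to 3.38 CPM, where a floor of 3 counts is 0.0698 to 0.122 CPM.

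The repair group held 2 of the 4 genes that rose. Xpc, whose product finds distorted DNA for nucleotide excision repair, stood at 28.9 and 24.8 CPM in untreated cells, 29.5 and 27.6 after 24 h, and 37.8 and 39.4 after 48 h. Both 48 h libraries were above the other 4, with a log2 change of 0.53 ± 0.11 (adjusted p = 0.0349) against untreated and 0.44 ± 0.11 (adjusted p = 0.0392) against 24 h. Ddb2, a partner in that recognition step, stood at 7.30 and 7.18 CPM in untreated cells, 5.05 and 6.43 after 24 h, and 12.0 and 12.3 after 48 h. Its 24 h libraries were the lowest and its 48 h libraries the highest, and the log2 change was 0.75 ± 0.16 (adjusted p = 0.0354) against untreated and 1.09 ± 0.16 (adjusted p = 0.0164) against 24 h. With 1 library dropped, the block values against untreated lay between 0.40 and 0.65 for Xpc and between 0.64 and 0.85 for Ddb2. Neither of these calls held in most such fits.

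Acp2 overlaps 23.8% of the Ddb2 exon bases on the opposite strand and held 2953 counts on average, against 273 for Ddb2. Acp2 stood at 84.9 and 78.9 CPM in untreated cells, 83.7 and 74.9 after 24 h, and 99.7 and 108 after 48 h, and its log2 difference was 0.34 (adjusted p = 0.0681) at 48 h against untreated and 0.39 (adjusted p = 0.0403) at 48 h against 24 h, in the same direction as Ddb2. Its part in the Ddb2 values was not tested. The counts were made with a strand setting per the file headers, whereas the kit named in the labels does not mark strand. In 41 other pairs, of a gene nested inside exons of a strongly expressed opposite-strand gene, the nested gene's counts per base were a median of 0.0017 of the other's. Polk, a polymerase gene for copying past damage, stood at 27.5 and 22.7 CPM in untreated cells, 38.7 and 25.1 after 24 h, and 26.1 and 19.4 after 48 h and changed by -0.48 ± 0.12 (adjusted p = 0.0399) from 24 h to 48 h. Rrm2b, a subunit gene of ribonucleotide reductase for repair synthesis, ranged from 25.8 to 36.4 CPM and was not called.

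In metabolism, the sestrin genes went apart. Both sestrins restrain mTORC1, the growth-promoting kinase complex. Sesn1 stood at 75.4 and 65.5 CPM in untreated cells, 63.4 and 66.5 after 24 h, and 106 and 133 after 48 h. Sesn2 stood at 226 and 146 CPM in untreated cells, 304 and 187 after 24 h, and 223 and 119 after 48 h. Sesn1 was highest in both 48 h libraries, with a log2 change of 0.76 ± 0.14 (adjusted p = 0.0285) against untreated, while Sesn2 peaked at 24 h in each clone and changed by -0.55 ± 0.10 (adjusted p = 0.0203) from 24 h to 48 h. The Sesn1 block value against untreated lay between 0.54 and 0.96 with 1 library dropped, and its call did not hold in every such fit. No test compared the sestrins with each other.

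Tigar, which lowers glycolysis by removing an activating sugar phosphate, stood at 19.7 and 32.9 CPM in untreated cells, 30.5 and 37.4 after 24 h, and 13.7 and 8.40 after 48 h. Both 48 h libraries were below the other 4, and the log2 difference was -1.22 ± 0.33 (adjusted p = 0.0548) against untreated and -1.59 ± 0.33 (adjusted p = 0.0235) against 24 h. Within the clones the 48 h difference was -0.52 in clone 30 and -1.96 in clone 31. Ephx1, the microsomal epoxide hydrolase gene, ranged from 359 to 637 CPM without a call. Ddit4, an mTORC1 inhibitor gene that also responds to hypoxia, had log2 differences against untreated at 48 h of -0.29 in clone 30 and 1.36 in clone 31, with the 48 h library of clone 31 at 610.2 CPM and the other 5 between 237 and 312. Hypoxia genes summed to 1553 CPM in that library and to 358 to 724 CPM in the others, and the part of hypoxia in the Ddit4 value was not tested.

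The clones differed in these genes beyond the spread that remained once treatment group was fitted. The libraries of a clone are its 3 times and not separate subclones. With the clone alone as a term, which keeps the spread between treatment groups, edgeR called 2 of 36 genes, both lower in clone 31, and 3.65% of all genes. With treatment group and clone as terms, edgeR called 15 of 36 genes lower in clone 31 than in clone 30 and 0 higher, against 8.58% of all 15492 genes tested lower, 7.58% higher and 16.2% in either direction. At an unadjusted p of 0.05 these were 21 lower and 0 higher, against 4983 of 15492 genes (32.2%), of which 2528 were lower and 2455 higher. The median log2 difference was -0.31, against 0.01 over all genes. In 22 of the 36 genes (61.1%) clone 30 exceeded clone 31 at all 3 times, against 26.1% of all genes, and in 0 of 36 did clone 31 exceed clone 30 at all 3, against 26.9%.

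Of the 15 genes called between the clones, 8 belong to the death group. All 11 death genes were below 0 with a median of -0.76, and those called were led by Fas at -1.52 ± 0.13 (adjusted p = 0.00299), Pmaip1 at -1.15 ± 0.10 (adjusted p = 0.00277) and Tnfrsf10b at -1.10 ± 0.12 (adjusted p = 0.00504). The other death genes called were Eda2r (-0.89), Bbc3 (-0.76), Phlda3 (-0.70), Ei24 (-0.43) and Aen (-0.33). Of the feedback genes and regulators 3 of 6 were called, Ccng1 (-0.67), Trp53inp1 (-0.66) and Mdm2 (-0.48), while Trp53 itself was at -0.12 ± 0.14 (adjusted p = 0.620). The other calls were Cdkn1a at -0.57 ± 0.09 (adjusted p = 0.0119), Zmat3 (-0.38), Polk (-0.45) and Sesn2 at -0.75 ± 0.08 (adjusted p = 0.00551). The calls of Ei24, Aen, Zmat3 and Polk did not hold in most fits with 1 library dropped. Those of Fas, Pmaip1, Tnfrsf10b, Eda2r, Phlda3 and Sesn2 held in all such fits. No microtubule gene was called by edgeR, and 1 of the 3, Ckap2 (-0.23), had an unadjusted p below 0.05.

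The untreated libraries, 1 per clone, were not tested for this difference on their own. Clone 30 exceeded clone 31 at every time, untreated included, in 22 of the 36 genes. Among the genes called between the clones, untreated Fas stood at 12.0 CPM in clone 30 and 4.08 in clone 31, Pmaip1 at 32.6 and 15.2, and Cdkn1a at 658 and 418. Some genes not called went the other way before auxin, such as Plk2 (252 and 411 CPM), Tigar (19.7 and 32.9), Plk3 (6.62 and 10.1) and Trp53 (109 and 123). Of the 19 upstream kinases and cofactors of p53 tested, 1 was called higher and 1 lower in clone 31, with 12 above 0 and a median of 0.07. The 1 called lower was Cdkn2a, whose products include p19Arf, at -0.77 ± 0.10 (adjusted p = 0.00847). Other lists moved with the clones. In clone 31, 11 of 12 mitosis genes and 6 of 12 S phase genes were called higher, with median log2 differences of 0.39 and 0.31. The amino acid and ER stress list had 5 of 9 genes higher and 0 lower (median 0.69), and the hypoxia list 4 of 9 higher and 1 lower (median 1.24). Mesenchymal markers summed to 27.0 to 38.4 CPM against 3.13 to 5.79 CPM in clone 30, most of it Col3a1. The part of these differences in the clone values of the 36 genes was not tested. The clone count was 6 without either 24 h library, with 4.51% and 4.46% of all genes called, and 23 (2 higher and 21 lower) without either 48 h library, with 30.8% and 30.9%. Under total-count scaling the calls over all genes moved from 1174 higher and 1329 lower to 910 higher and 1609 lower, with 20 of the 36 genes lower.

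**Figure D3:**
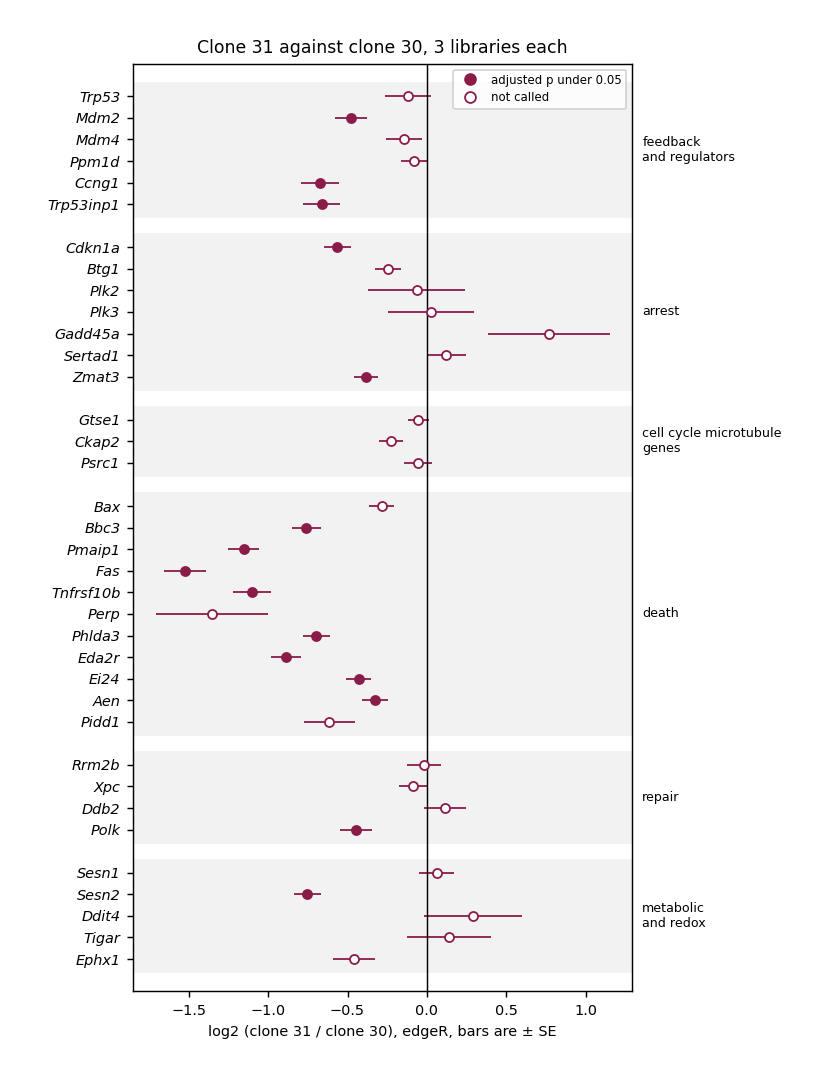
Log2 difference of clone 31 against clone 30 for the 36 genes by role, from edgeR with treatment group and clone as terms (3 libraries per clone), with bars of 1 SE; filled points have an adjusted p under 0.05. All 11 death genes lie left of 0, from Fas at -1.52 and Perp at -1.35 to Bax at -0.29.

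A further list of 22 p53 targets that are not among the 36 was measured for context. It was chosen with earlier results of these data known and is no independent evidence. At 24 h 18 of the 22 were above 0 in the block fit, with a median of 0.17, and 0 were called by edgeR (6 at an unadjusted p of 0.05, 0 on treatment group alone). At 48 h the block called 1 of the 22 higher and 2 lower, against 8.35% and 9.08% of all genes. Abhd4 rose, at 0.60 ± 0.13 (adjusted p = 0.0374). Gdf15, a secreted stress factor of the TGF-beta family, and Trp53i11 fell, at -1.69 ± 0.41 (adjusted p = 0.0441) and -1.28 ± 0.24 (adjusted p = 0.0295). Between clones 13 of the 22 were lower and 1 higher in clone 31, against 8.58% and 7.58% of all genes. The lower genes were led by Rprm (-2.56), an arrest gene, and Ptprv (-2.47).

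Of the upstream kinases and cofactors of p53, 19 of 20 were tested. The block called 1 of the 19 higher and 2 lower at 48 h, against 8.35% and 9.08% of all genes. At 48 h the checkpoint kinase gene Chek1 fell, at -0.81 ± 0.10 (adjusted p = 0.0238), as did Atr, the kinase gene that activates it, at -0.54 ± 0.13 (adjusted p = 0.0466), and Trp53bp2 rose, at 0.36 ± 0.09 (adjusted p = 0.0490). The amino acid and ER stress list, measured because ER stress can also induce Sesn2 and Ddit4, had 4 of 9 genes lower at 48 h and 0 higher. These were Asns (-0.80), Xbp1 (-0.85), Hspa5 (-0.53) and, named after its value was seen, Atf4 (-1.02). The hypoxia list had 9 of 9 genes below 0 at 24 h with a median of -0.62 and 0 calls by edgeR or at an unadjusted p of 0.05, and at 48 h 1 higher (Kdm3a) and 1 lower (Adm).

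**Figure D4:**
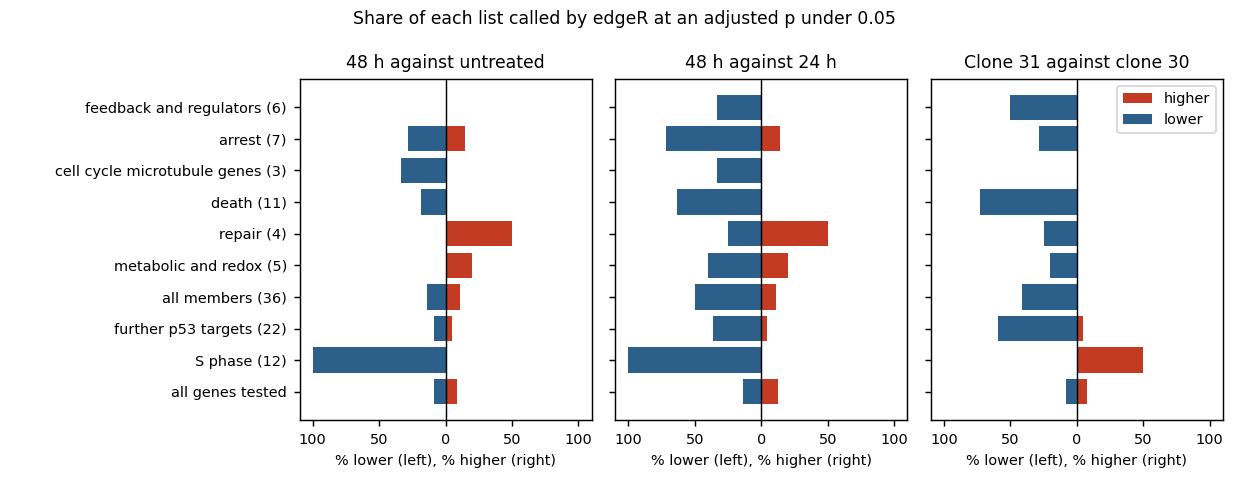
Percent of each list called lower (bars to the left of 0) or higher (to the right) by edgeR at an adjusted p under 0.05, with the clone as a block for both 48 h comparisons and with treatment group and clone as terms between clones; list sizes are in brackets and the bottom bar is all genes tested, 16007 for the auxin comparisons and 15492 between clones. The death list stands at 7 of 11 lower between 24 h and 48 h and 8 of 11 lower in clone 31, while the repair list has 2 of 4 higher at 48 h.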

How the data were processed

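Per the labels' protocols, the 6 libraries came from RNA with a RIN score above 9 and the TruSeq RNA kit v2. Per the file headers, the deposited raw counts come from featureCounts 1.6.1, run by the authors on exons of Ensembl release 92 with the strand setting -s 2. The alignments counted lay in a folder called STAR, and their names mark them as merged and stripped of duplicates, while R 3.4.2, DESeq2 and build mm10 are named in the submitters' processing notes. The other deposited value is each gene's exon length, per the file headers. It was used for CPM per kb. Symbols came from Ensembl identifiers (53620 of 53801 matched), and Ddit3, with more than 1 identifier, was left out of its list.

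Counts were tested across all genes with the robust quasi-likelihood test of edgeR 4.0.16 under R 4.3.3 (2-sided, TMM, filterByExpr, Benjamini-Hochberg) on treatment group alone, with all 6 libraries sharing 1 estimate of the spread. The sample titles tie libraries to clones. Libraries of 1 clone deviated together from the group means, with correlations of 0.80 between untreated and 24 h, 0.71 between 24 h and 48 h, and 0.58 between untreated and 48 h. The clone was therefore taken as a pairing, and a blocked fit stands beside each auxin result. The common coefficient of variation was 0.271 without and 0.121 with the block, on 3 and 2 residual degrees of freedom. Each SE was taken from the log2 change and the square root of its F statistic. Within-clone changes are differences of log2 CPM (prior count 2) and have no test, since each clone and time has 1 library. Alternatives were other scalings, no filter or one at 1 CPM, limma 3.58.1 voom, DESeq2 1.42.0, the 4 libraries compared, and leaving out each library.

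The members and lists were chosen with earlier results of these data known. Every-library values are given for Trp53, Cdkn1a and Mdm2, for members of at least 1 CPM called in any comparison, and for the 2 members per role with the smallest blocked p at 24 h and at 48 h. Outside the members, Spen and up to 3 genes per list by smallest blocked p are named, plus marker genes and the antisense neighbours of Gadd45a and Ddb2. The lists hold 22 further p53 targets, 20 upstream kinases and cofactors, 12 mitosis, 12 S phase, 9 amino acid and ER stress and 10 hypoxia genes, and markers of neural progenitors, neurons, astrocytes, oligodendrocytes, pluripotent cells, mesenchyme and microglia. Neuron markers summed to 722 to 1132 CPM, mostly Map2, and microglia markers to 0.0237 to 0.125 CPM.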

Additional observations from a re-analysis of the deposited data

Results flagged for a closer look

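In these genes the 2 clones moved in opposite directions under the same contrast. Each clone and time has 1 library, so the difference between the clones was not tested. All values are log2 changes of CPM, and the difference is that of clone 31 minus that of clone 30. At 24 h this held for 7 of 36 genes (19.4%), against 36.5% of all genes, with differences of -0.64 for Plk2, -0.92 for Gadd45a, 0.12 for Ckap2, -1.44 for Perp, -0.19 for Rrm2b, 0.27 for Sesn1 and 0.45 for Ddit4. The change of Plk2 in clone 31 was within 0.01 of 0, at -0.00088. Perp is the gene with the lowest level of the 36.

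At 48 h against untreated it held for 5 of 36 genes (13.9%), against 27.8% of all genes. The difference was -2.14 for Gadd45a, whose change was 0.23 in clone 30 and -1.92 in clone 31, and 1.65 for Ddit4, at -0.29 in clone 30 and 1.36 in clone 31. It was -0.55 for Mdm4, 0.40 for Ccng1 and 0.16 for Ei24. From 24 h to 48 h it held for 6 of 36 genes (16.7%), against 20.3% of all genes, with differences of -0.31 for Mdm4, 0.46 for Ccng1, 0.48 for Trp53inp1, 0.35 for Psrc1, 0.29 for Bbc3 and 0.44 for Fas.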

How the results depend on the processing

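With 2 libraries a group the counts of called genes depended on the model. With the clone as a replicate block, 9 of 36 genes were called at 48 h against untreated (17.4% of all genes) and 22 from 24 h to 48 h (26.1%). On treatment group alone these were 0 of 36 and 0% of all genes. The block was also fitted with DESeq2 size factors, upper-quartile scaling, total counts, a filter at 1 CPM, no filter, DESeq2 and limma voom. In that order the counts were 9, 8, 8, 8, 9, 12 and 11 at 48 h against untreated. The shares of all genes called were 17.6%, 17.2%, 16.1%, 19.7%, 12.1%, 21.0% and 17.6%. From 24 h to 48 h the counts were 22, 18, 20, 19, 19, 22 and 22. Those shares were 26.3%, 26.7%, 25.2%, 29.1%, 16.4%, 26.7% and 27.1%. The block on the 4 libraries compared gave 3 at 24 h, 0 at 48 h and 21 from 24 h to 48 h. Over all genes it called 0.888%, 0.0195% and 26.5%. On treatment group alone, no filter gave 1 and 3 and DESeq2 7 and 10 in the 48 h comparisons. The shares of all genes were 0.805% and 3.11% with no filter and 10.4% and 15.8% with DESeq2. Between clones, the clone alone gave 2, with 3.65% of all genes called.

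Leaving out 1 library, the block gave 0 to 4 genes at 24 h, 0 to 22 at 48 h and 0 to 27 from 24 h to 48 h, treatment group alone gave 0 in each, and the clone comparison gave 6 to 23. With the block and between clones, the share of all genes called was also lowest where these counts were lowest and highest where they were highest. The ranges therefore do not set the 36 genes apart from all genes. Directions that turned when 1 library was left out were, on treatment group alone, those of Cdkn1a (-0.076 to 0.60), Fas (-0.35 to 1.71) and Trp53inp1 (-0.23 to 0.66) at 24 h, of Pmaip1 (-1.33 to 0.045) and Eda2r (-0.90 to 0.16) from 24 h to 48 h, and of the median of the 36 genes at 48 h (-0.37 to 0.0094). With the block they were Trp53 (-0.090 to 0.34) and Tigar (-0.021 to 0.88) at 24 h, and Trp53 between clones (-0.26 to 0.077). The cause was not tested. Depth limits Perp most, at 0.603 to 3.38 CPM.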
